A study of Mus musculus with 6 samples.

Results

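The genes described here are the 45 members of the DNA replication origin and fork machinery, out of 23669 gene rows in the table. They were chosen by name for what their products do, with no measured value in the rule. Earlier results of these data were known when they were chosen. Every member was found under its own symbol. The study measured gene expression in whole kidneys of 3 wild type mouse samples and 3 samples of the genotype R26NICD2/+ Kspcre, called NICD2 below, all at postnatal day 3. Its title frames the question as cyst growth under active Notch2 signaling. The R26NICD2 allele places the intracellular domain of Notch2, the part of the receptor that acts in the nucleus, at the Rosa26 locus, and it is present in 1 copy. Kspcre is a Cre recombinase driven by the Ksp-cadherin (Cdh16) promoter, which works in tubule epithelium, while the kidneys measured also hold glomerular, stromal, vascular and blood cells. The labels do not say whether the wild type samples carried Cre, nor that the samples of a group were separate animals. The p-values below therefore rest on sample-to-sample spread, some of which may be technical.

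A cell copies its genome once per division. In G1 the origin recognition complex (ORC), Cdc6 and Cdt1 load rings of the MCM2-7 helicase onto DNA, and geminin, the product of Gmnn, later blocks Cdt1 so that no origin is loaded again. In S phase the kinase subunit Dbf4, Mcm10, Cdc45 and GINS switch the helicase on, and primase, the polymerases, the clamp PCNA with its loader RFC, the single-strand binding protein RPA and the Okazaki fragment enzymes make the new strands. Many of these genes are transcribed from G1 into S phase under E2F factors. In a kidney just after birth, nephrons are still forming and many epithelial cells divide.

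Levels are in FPKM, fragments scaled to transcript length and sequencing depth, a scale on which genes can be compared per length. A fold change is the difference between NICD2 and wild type in mean log2(FPKM + 1), given ± SE with 3 samples a group. This scale understates the change of genes with low levels. A gene is called when its adjusted p is under 0.05 in a limma fit over all 13765 tested genes (Benjamini-Hochberg, two-sided).

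As a check of the labels, the row given as human Notch2 held 0, 0.03 and 0.03 FPKM in wild type replicates 1, 2 and 3 and 75.4, 79.6 and 60.2 FPKM in NICD2 replicates 1, 2 and 3. Mouse Notch2 was not called (limma log2 fold change 0.02 ± 0.08, adjusted p = 0.894). Depth was estimated at 16550000 to 17350000 fragments, with 13568 to 13784 genes at 1 FPKM or more. Of the kidney markers, Cdh16, Umod, Slc34a1, Nphs1 and the others were expressed in every library. Summed markers of the adrenal gland, which lies on the kidney, were at 193.5, 199.4 and 5.21 FPKM in wild type and at 2.12, 187.7 and 189.4 FPKM in NICD2, so wild type replicate 3 and NICD2 replicate 1 stand apart. NICD2 replicate 3 held 0 FPKM of Y-linked transcripts, which the other libraries held at 62.4 to 77.1 FPKM.

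Of the 45 replication genes, all of which passed the filter of 1 FPKM in at least 3 libraries, 21 rose in NICD2 kidneys, none fell and 24 were not called. That is 46.7% of the members higher, where limma called 4.93% of all tested genes higher and 3.86% lower (8.79% in either direction). The members were chosen with earlier results known, so these shares are a description and not an independent test. An unadjusted p under 0.05 with a higher level was reached by 31 members, against 12.4% of all tested genes, and no member reached it with a lower level (25.1% of all tested genes reached it in either direction). The fold change was above 0 for 43 of 45 members, against 48.2% of all tested genes. Their median log2 fold change was 0.35, with a range from -0.07 (Orc3) to 1.10 (Gmnn), where the median of all tested genes was -0.01. In 28 members every NICD2 library lay above every wild type library, which held for 15% of all tested genes. In none did every NICD2 library lie below every wild type library, against 15.5% of all tested genes. The gains were modest, since Gmnn was 2.23 times its wild type mean and the other 20 called members were 1.25 to 1.72 times theirs. In whole kidneys a larger share of cells in S phase and more transcript per cell cannot be told apart.

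The genes that rose were Cdc6, Cdt1 and Gmnn of the licensing step, Mcm2, Mcm3, Mcm4, Mcm5, Mcm6 and Mcm7 of the helicase, and Mcm10, Gins2 and Dbf4 of origin firing. At the fork they were Pcna, Rfc4, Rfc5, Rpa2, Prim1, Lig1 and Exo1, and in nucleotide supply Rrm1 and Rrm2. Leaving out each library in turn kept 11 of the 21 called in all 6 fits: Cdc6, Cdt1, Gmnn, Mcm4, Mcm6, Gins2, Rfc4, Rfc5, Prim1, Exo1 and Rrm2. The other 10 lost the call in at least 1 of those fits. Wild type replicate 2 moved the count most, to 11 called members without it, while calls over all tested genes went from 1210 to 624. Without NICD2 replicate 3 the count was 25, with 985 called over all tested genes. In the 4 libraries with adrenal transcripts, a comparison of 2 against 2 added after the data had been seen, 8 members were called and the median log2 fold change was 0.35. With a term for adrenal transcripts over all 6 libraries, 21 were called, Pola1 being added (adjusted p = 0.0441) and Pcna lost (0.0627).

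**Figure D1:**
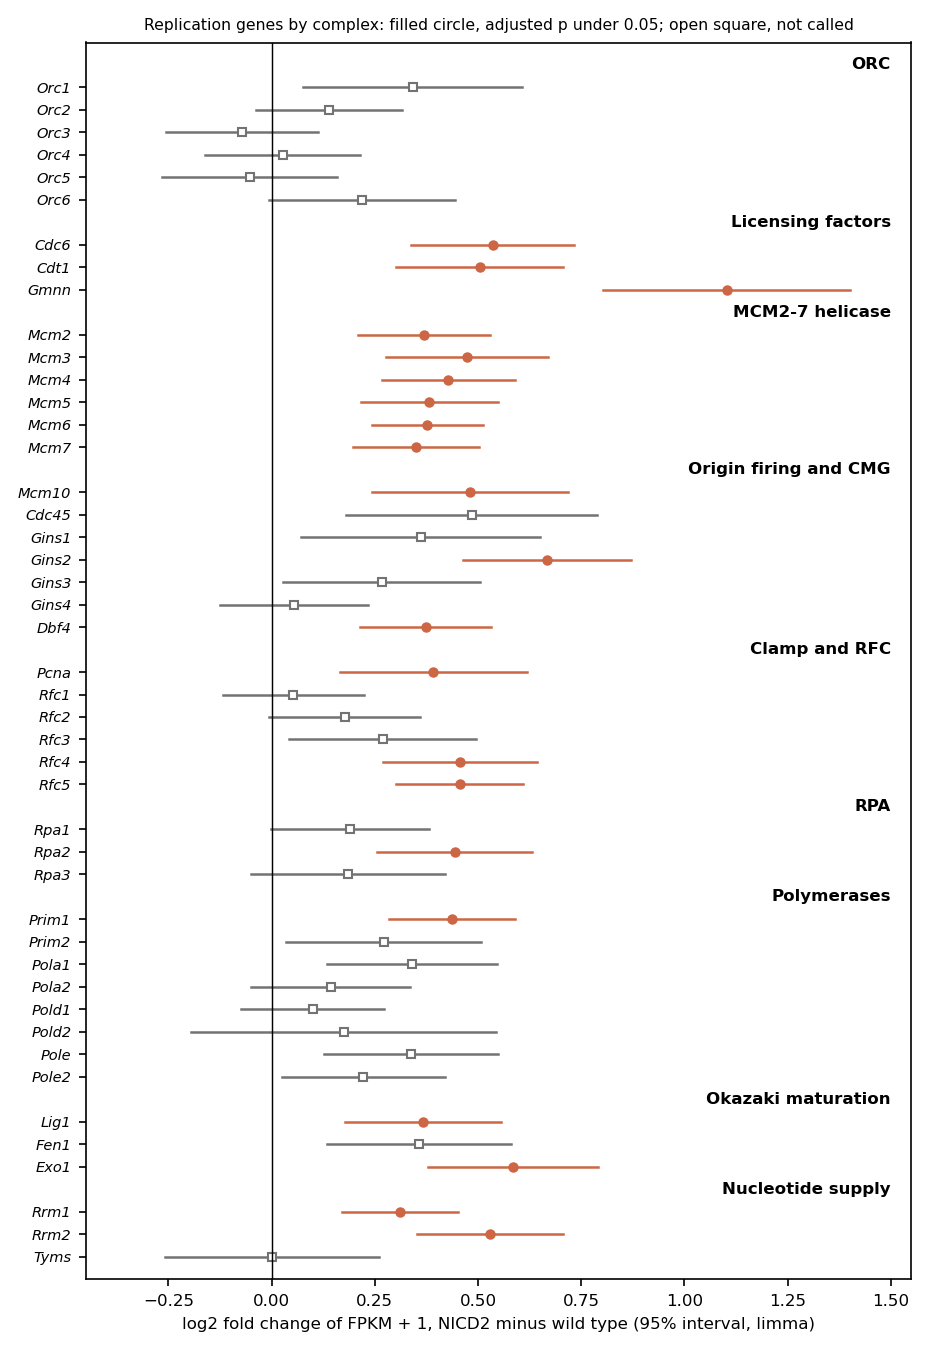
Fold change of log2(FPKM + 1) on the horizontal axis, NICD2 minus wild type, with the 95% limma interval, for each of the 45 replication genes grouped by complex (n = 3 per group). Filled circles are the 21 genes called higher and open squares the 24 not called; the licensing factors and MCM2-7 are filled throughout, and no ORC gene is.

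Some of these genes carry E2F sites near their starts, so the sequence upstream of 4 of them is printed before the values. RefSeq promoter windows of GRCm38.p6, 300 bases from 250 before to 50 after a transcript start, were available for 36 of the 45 members. They were searched on both strands for the E2F motifs TTTCCCGC and TTTGGCGC, the CCAAT box, the cell cycle homology region (CHR) motif TTTGAA and the RBPJ motif GTGGGAA, bound by the DNA-binding partner of the Notch intracellular domain. The stretches shown hold no annotated exon, those of the called genes Cdc6, Mcm5 and Mcm6 and of Pola1, whose adjusted p was just above the threshold. Capitals mark the E2F motif, as its reverse complement in Cdc6 (GCGGGAAA) and in Mcm5 and Pola1 (GCGCCAAA), and each stretch is printed 5′ to 3′ on the gene's strand. The Cdc6 stretch is chr11:98907983-98908050 (plus strand), 168 to 101 bases before the RefSeq start and inside the first intron of longer transcripts. The Mcm5 stretch is chr8:75109330-75109397 (plus strand), 179 to 112 bases before the start. The Mcm6 stretch is chr1:128359715-128359845 (minus strand), 140 to 10 bases before the start, and holds the motif at 2 places. The Pola1 stretch is chrX:93632256-93632323 (minus strand), 168 to 101 bases before the start.
Cdc6: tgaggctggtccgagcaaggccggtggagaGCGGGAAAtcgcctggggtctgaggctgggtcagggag
Mcm5: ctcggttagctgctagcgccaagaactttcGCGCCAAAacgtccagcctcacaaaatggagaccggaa
Mcm6: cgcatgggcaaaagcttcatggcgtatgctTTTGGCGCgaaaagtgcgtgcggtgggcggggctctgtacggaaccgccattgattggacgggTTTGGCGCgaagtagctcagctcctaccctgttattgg
Pola1: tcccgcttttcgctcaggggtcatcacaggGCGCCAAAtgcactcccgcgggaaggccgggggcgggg

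An E2F motif stood in the window of 12 of the 36 members (33.3%), against 353 of the 10463 tested genes with a window (3.37%). The 12 were Cdc6, Cdt1, Gins3, Mcm3, Mcm5, Mcm6, Mcm7, Orc3, Pola1, Pold1, Pole2 and Rfc3. The motif did not separate members that rose from those not called, being found in 6 of 17 called members (35.3%) and in 6 of 19 others (31.6%). Among tested genes called higher that are not members, 22 of 492 held it (4.47%). The CCAAT box was found in 23 of 36 members (63.9%) and in 42.8% of tested genes, and the CHR motif in 6 members (16.7%) and in 14.3% of tested genes. The RBPJ motif was found in 7 members (19.4%) and in 7.27% of tested genes. Those 7 were Fen1, Mcm3, Orc3, Orc5, Pold2, Pole2 and Rfc3, of which Mcm3 alone was called. The median GC content of the windows was 60.1% in members and 60.7% in tested genes. A match is a string of letters in a window, and binding was not measured.

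**Figure D2:**
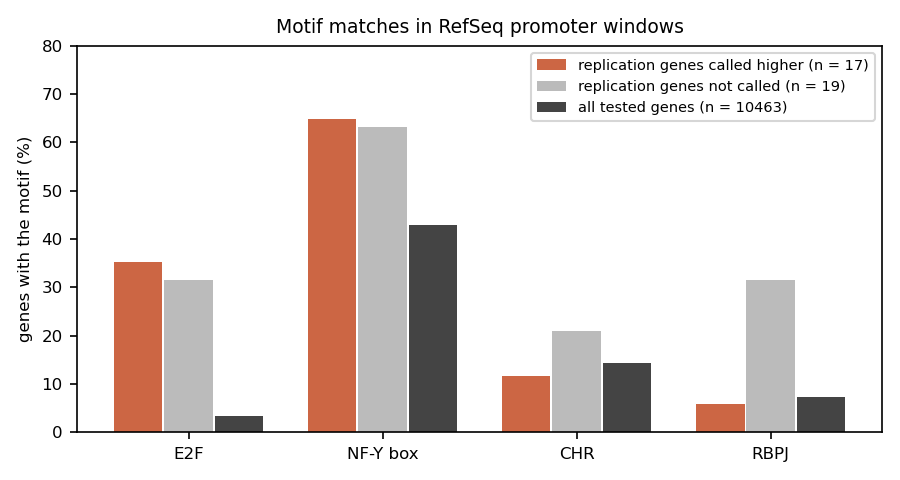
Share of genes (vertical axis, %) whose RefSeq promoter window holds each motif, for replication genes called higher (17), replication genes not called (19) and all tested genes with a window (10463); the NF-Y box is the CCAAT box. The E2F bars of the first 2 groups are at 35.3% and 31.6%, against 3.37% for all tested genes.

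Of the 6 ORC subunits, which mark origins on DNA, none was called, and their median log2 fold change was 0.08. Orc1, the subunit whose level changes with the cell cycle, had the lowest level of the complex, at 1.16, 1.2 and 1.6 FPKM in wild type and 1.79, 1.86 and 2.15 FPKM in NICD2. Its groups did not overlap, but the difference did not pass (limma log2 fold change 0.34 ± 0.12, adjusted p = 0.109). Orc6, which binds ORC loosely and takes part in helicase loading, was at 19.6, 16.7 and 19.5 FPKM in wild type and 21.5, 24.6 and 19.4 FPKM in NICD2 (adjusted p = 0.215). NICD2 replicate 3 lay within the wild type range.

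The 4 remaining ORC genes, Orc2 to Orc5, had a median log2 fold change of -0.01. Orc3 was the most abundant ORC transcript, at 24.2, 27.1 and 28.9 FPKM in wild type and 24.8, 24.1 and 27.0 FPKM in NICD2. The groups overlapped almost fully, and the limma interval of its log2 fold change ran from -0.26 to 0.11. For Orc4 the interval was -0.16 to 0.21 and for Orc5 -0.27 to 0.16. Whether these genes changed less than the called members was not tested. Orc2 was at 10.4 ± 0.853 and 11.6 ± 0.544 FPKM (SD, n = 3; adjusted p = 0.305). The order of the 6 mean levels, Orc3, Orc6, Orc5, Orc2, Orc4 and Orc1, was the same in both groups. In wild type the means of Orc2 and Orc4 differed by less than their SD, though Orc2 lay above Orc4 in every library.

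All 3 licensing factors rose, in the fit of all 6 libraries and in each fit without 1 library. Gmnn (chromosome 13, 24751845 to 24761937 on GRCm38), the geminin gene, was at 18.03, 14.4 and 17.4 FPKM in wild type and 41.4, 39.9 and 29.8 FPKM in NICD2. The groups were far apart, and NICD2 replicate 3 was the lowest of its group. Its log2 fold change was the highest of the 45 members at 1.10 ± 0.13 (limma adjusted p = 0.00149), with mean levels 2.23 times apart. Leaving out 1 library gave adjusted p values up to 0.00895.

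Cdt1 (chromosome 8, 122568015 to 122573130), the loader that geminin binds, was at 12.4, 11.96 and 10.3 FPKM in wild type and 16.96, 17.9 and 15.4 FPKM in NICD2. All NICD2 libraries lay above the wild type libraries (limma log2 fold change 0.50 ± 0.09, adjusted p = 0.00998). Without the 2 libraries that lack adrenal transcripts its adjusted p was 0.0742. Cdc6 (chromosome 11, 98907704 to 98923942), the ATPase that works with ORC in loading, was at 4.43, 4.21 and 4.95 FPKM in wild type and 6.99, 7.54 and 6.51 FPKM in NICD2. The groups stood clear of each other (limma log2 fold change 0.54 ± 0.09, adjusted p = 0.00703).

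The inhibitor thus gained more than its target at the level of transcripts, as a description chosen after the values were seen. The ratio of Gmnn to Cdt1 FPKM was 1.45, 1.2 and 1.7 in wild type and 2.44, 2.23 and 1.93 in NICD2. The ratios of the 2 groups did not overlap, and NICD2 replicate 3 was nearest to wild type. Protein levels were not measured.

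All 6 subunits of the MCM2-7 helicase, the ring that unwinds DNA at the fork, rose by similar amounts. Their log2 fold changes ran from 0.35 to 0.47 with a median of 0.38, and every NICD2 library exceeded every wild type library in each subunit. Mcm3 was at 28.5, 24.2 and 26.1 FPKM in wild type and 37.6, 39.7 and 33.3 FPKM in NICD2 (limma log2 fold change 0.47 ± 0.09, adjusted p = 0.0116). It had the largest change of the ring. Mcm4 was at 19.4, 19.96 and 20.6 FPKM in wild type and 27.8, 29.0 and 24.99 FPKM in NICD2 (0.43 ± 0.07, limma adjusted p = 0.00787). Mcm6 was at 42.6, 41.3 and 43.7 FPKM in wild type and 54.0, 57.9 and 54.7 FPKM in NICD2 (0.38 ± 0.06, limma adjusted p = 0.00588). Mcm4 and Mcm6, which form part of the catalytic core, stayed called whichever library was left out.

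Mcm2, Mcm5 and Mcm7 had means of 23.9 ± 0.584, 20.1 ± 0.797 and 43.8 ± 2.09 FPKM in wild type (SD, n = 3). In NICD2 the means were 31.2 ± 2.44, 26.5 ± 2.02 and 56.0 ± 3.14 FPKM (SD, n = 3), with limma adjusted p = 0.0144, 0.0142 and 0.0150. Mcm6 and Mcm7 lay above the other 4 subunits in every library. Although the ring holds 1 copy of each subunit, the transcripts were thus not at equal levels per length. Without wild type replicate 2, Mcm2, Mcm3, Mcm5 and Mcm7 lost their calls (limma adjusted p = 0.0654, 0.0527, 0.0664 and 0.0678), which left 2 of 6. Mcm2 and Mcm7 also lost theirs without wild type replicate 3 (0.0520 and 0.0543), and Mcm7 without NICD2 replicate 1 or 2 (0.0574 and 0.0539). In the 4 libraries with adrenal transcripts 1 of 6 was called.

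Of 7 genes that turn the loaded helicase into a moving one, Mcm10, Gins2 and Dbf4 rose and 4 were not called. Gins2 (chromosome 8, 120581266 to 120589075), a subunit of the 4-part GINS complex, was at 14.0, 12.0 and 12.6 FPKM in wild type and 21.8, 22.6 and 18.7 FPKM in NICD2. Its groups did not overlap, and its log2 fold change ranked next to that of Gmnn among members (0.67 ± 0.09, limma adjusted p = 0.00269). The rank depends on the scale: with 0.1 in place of 1 added to the FPKM, Exo1 was at 0.76 and Gins2 at 0.70. The other GINS subunits were not called although the 4 proteins work as 1 complex. Gins1 was at 10.7, 9.11 and 11.4 FPKM in wild type and 14.5, 15.6 and 11.1 FPKM in NICD2 (limma adjusted p = 0.118). NICD2 replicate 3 fell into the wild type range, and without that library Gins1 was called (adjusted p = 0.0285). Gins3, the least abundant at 2.78 ± 0.384 and 3.54 ± 0.265 FPKM (SD, n = 3), had adjusted p = 0.154. Gins4 was at 18.8, 17.9 and 17.5 FPKM in wild type and 20.98, 17.6 and 17.9 FPKM in NICD2. Only NICD2 replicate 1 exceeded its wild type range (limma log2 fold change 0.05 ± 0.08, interval -0.13 to 0.23).

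Cdc45, which binds MCM2-7 and GINS in the active helicase, was at 6.40, 6.11 and 5.45 FPKM in wild type and 8.61, 10.9 and 7.13 FPKM in NICD2. The groups did not overlap, yet the spread of the NICD2 libraries kept it just outside the threshold (limma log2 fold change 0.48 ± 0.13, adjusted p = 0.0596). It was called without NICD2 replicate 3 (adjusted p = 0.0197). Dbf4, which activates the kinase Cdc7 at origins, was at 13.3, 12.5 and 13.9 FPKM in wild type and 18.2, 17.5 and 16.5 FPKM in NICD2 (limma log2 fold change 0.37 ± 0.07, adjusted p = 0.0129). Every NICD2 library was above wild type, and the largest adjusted p in the fits without 1 library was 0.0618, with the call lost when wild type replicate 2 or NICD2 replicate 1 was left out. Mcm10, which helps to start unwinding, was at 4.03, 3.39 and 3.87 FPKM in wild type and 5.82, 6.29 and 4.87 FPKM in NICD2 (0.48 ± 0.10, limma adjusted p = 0.0251). Its groups stood apart, but the call held in 2 of 6 fits without a library, those lacking wild type replicate 1 and NICD2 replicate 3 (adjusted p up to 0.0984 in the others). The number called in this group was 1 without wild type replicate 2, 1 without NICD2 replicate 1 and 5 without NICD2 replicate 3, and 1 in the libraries with adrenal transcripts.

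**Figure D3:**
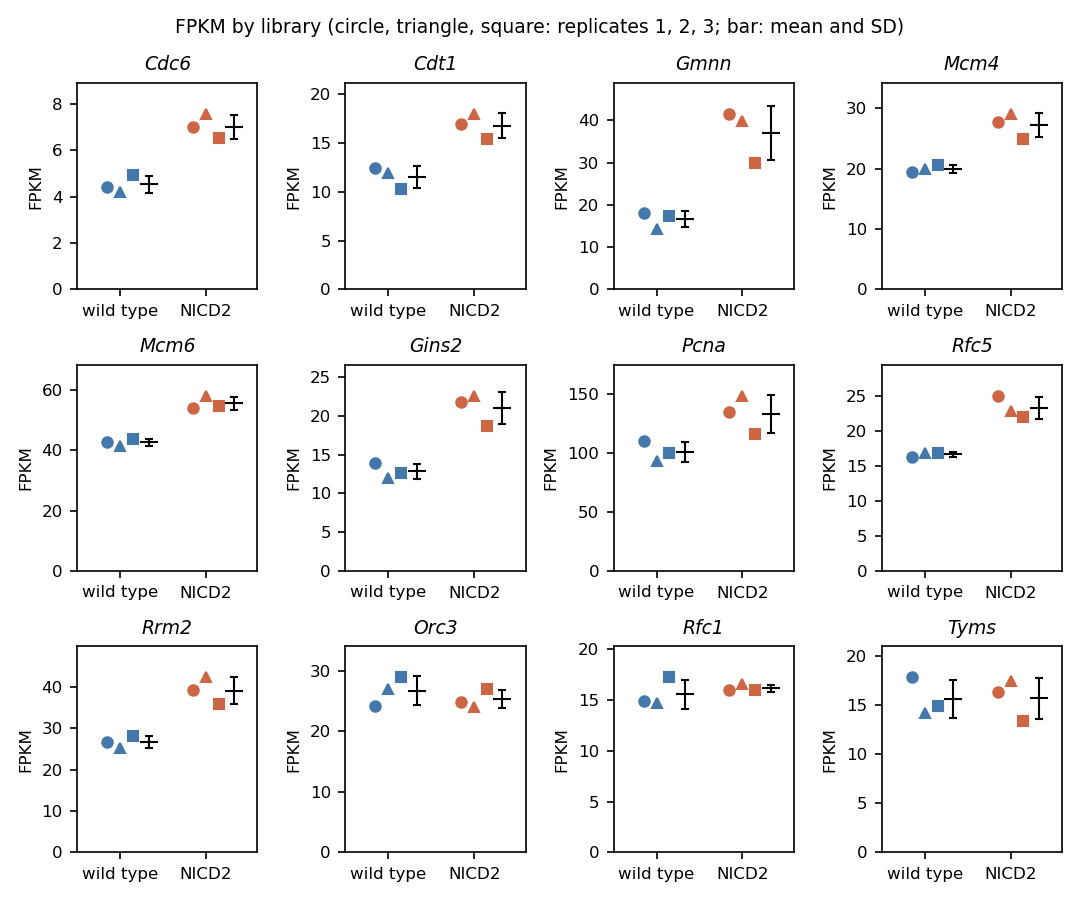
FPKM (vertical axes, each from 0) of 12 replication genes in each library, with the mean and SD of the 3 libraries of a group. In the first 9 panels all NICD2 libraries lie above all wild type libraries, while Orc3, Rfc1 and Tyms overlap.

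Pcna (chromosome 2, 132249286 to 132253180), the sliding clamp that tethers polymerases, had the highest level of all 45 members. It was at 110.1, 93.0 and 100.6 FPKM in wild type and 135.2, 148.6 and 116.7 FPKM in NICD2. The groups did not overlap, with a narrow gap between wild type replicate 1 and NICD2 replicate 3 (limma log2 fold change 0.39 ± 0.10, adjusted p = 0.0452). It was the called member nearest to the threshold, and it stayed called only when wild type replicate 1 or NICD2 replicate 3 was the library left out (adjusted p up to 0.153 otherwise). It was also lost with no filter on low values (0.0897) and with the adrenal term (0.0627).

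Of the 5 subunits of RFC, the clamp loader, Rfc4 and Rfc5 rose and 3 were not called. Whether the subunits changed by different amounts was not tested. Rfc4 was at 10.96, 9.81 and 11.6 FPKM in wild type and 15.4, 14.1 and 16.1 FPKM in NICD2 (limma log2 fold change 0.46 ± 0.08, adjusted p = 0.0113). It was among the 3 members whose highest NICD2 level was in replicate 3. Rfc5 was at 16.2, 16.9 and 16.9 FPKM in wild type and 24.9, 22.8 and 21.9 FPKM in NICD2 (0.46 ± 0.07, limma adjusted p = 0.00461). Both kept their calls in each fit without 1 library. Rfc1, the large subunit, was at 14.9, 14.7 and 17.2 FPKM in wild type and 16.0, 16.6 and 16.0 FPKM in NICD2. All 3 NICD2 values lay inside the wild type range (interval of the log2 fold change -0.12 to 0.22). Rfc2 and Rfc3 had log2 fold changes of 0.18 ± 0.08 and 0.27 ± 0.10, with groups that overlapped (limma adjusted p = 0.216 and 0.134).

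RPA, the trimer that coats single-stranded DNA, showed a rise in 1 of 3 subunits. Rpa2 was at 11.02, 9.75 and 10.9 FPKM in wild type and 15.5, 15.3 and 13.3 FPKM in NICD2 (limma log2 fold change 0.44 ± 0.08, adjusted p = 0.0128). Its groups did not overlap, and the call was lost without wild type replicate 2 (adjusted p = 0.0591), after which no RPA gene was called, as in the libraries with adrenal transcripts. Rpa1 and Rpa3 had log2 fold changes of 0.19 ± 0.08 and 0.19 ± 0.10 with overlapping groups (limma adjusted p = 0.200 and 0.305).

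Among 8 genes of primase and the polymerases, only Prim1 was called, while all 8 fold changes were above 0, with a median of 0.25. Prim1, the catalytic subunit of primase, which lays down the RNA primer, was at 16.8, 15.2 and 16.7 FPKM in wild type and 23.4, 21.7 and 21.9 FPKM in NICD2. The groups were well apart (limma log2 fold change 0.44 ± 0.07, adjusted p = 0.00549). Prim2, its partner subunit, was at 9.17, 8.49 and 10.3 FPKM in wild type and 12.5, 12.1 and 9.87 FPKM in NICD2 (adjusted p = 0.145). NICD2 replicate 3 lay below wild type replicate 3.

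The catalytic subunits of polymerases alpha and epsilon lay just outside the threshold. Pola1, which extends the primer, was at 5.03, 5.36 and 6.22 FPKM in wild type and 7.48, 7.54 and 6.75 FPKM in NICD2 (limma log2 fold change 0.34 ± 0.09, adjusted p = 0.0536). Pole, the leading strand polymerase, was at 5.20, 5.25 and 5.59 FPKM in wild type and 7.22, 7.79 and 6.13 FPKM in NICD2 (0.34 ± 0.09, limma adjusted p = 0.0594). In both genes the groups did not overlap. Pola1 was called without wild type replicate 3 (0.0383) and Pole without NICD2 replicate 3 (0.0299), each of which brought the count to 2 of 8. With limma's robust option both were called (0.0425 and 0.0470), which made it 3. In the 4 libraries with adrenal transcripts none was called, and with the term for those transcripts Pola1 was added (0.0441).

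The catalytic subunit of the lagging strand polymerase, Pold1, was at 9.94, 9.99 and 9.63 FPKM in wild type and 11.02, 11.3 and 9.64 FPKM in NICD2. NICD2 replicate 3 was level with the lowest wild type library (interval of the log2 fold change -0.07 to 0.27). Its partner Pold2 had the widest interval of the 45 members, -0.20 to 0.54, with NICD2 libraries at 24.6, 28.3 and 17.3 FPKM. The accessory subunits Pola2 and Pole2 had log2 fold changes of 0.14 ± 0.08 and 0.22 ± 0.09 (limma adjusted p = 0.334 and 0.151).

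Of the 3 enzymes that finish Okazaki fragments or resect ends, Lig1 and Exo1 rose. Exo1, a nuclease used in mismatch repair and end resection, was at 2.12, 2.26 and 2.44 FPKM in wild type and 4.17, 3.94 and 3.62 FPKM in NICD2. It was low in both groups, but each NICD2 library was above each wild type library (limma log2 fold change 0.58 ± 0.09, adjusted p = 0.00574), and its means were 1.72 times apart. Lig1, the ligase that seals fragments, was at 23.4, 21.2 and 21.8 FPKM in wild type and 29.6, 31.3 and 25.7 FPKM in NICD2 (0.37 ± 0.08, limma adjusted p = 0.0299). Its call, too, was lost in the same 4 fits without a library as that of Pcna (adjusted p up to 0.113) and with no filter on low values (0.0573), which left 1 of 3. Fen1, the flap nuclease that trims them, was at 13.7, 11.1 and 11.5 FPKM in wild type and 16.7, 16.6 and 14.0 FPKM in NICD2 (0.36 ± 0.10, limma adjusted p = 0.0590). Its groups did not overlap, by a narrow margin, and it was called without wild type replicate 1 (0.0313) or NICD2 replicate 3 (0.0389).

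In nucleotide supply both subunits of ribonucleotide reductase, which makes deoxyribonucleotides, rose. Rrm2 (chromosome 12, 24708254 to 24714146), its cell cycle regulated subunit, was at 26.7, 25.2 and 28.2 FPKM in wild type and 39.1, 42.2 and 35.7 FPKM in NICD2 (limma log2 fold change 0.53 ± 0.08, adjusted p = 0.00430). Rrm1, the large subunit, was at 25.1, 25.6 and 26.7 FPKM in wild type and 33.2, 32.8 and 30.7 FPKM in NICD2 (0.31 ± 0.06, limma adjusted p = 0.0168). Neither gene's groups overlapped. Rrm1 lost its call without wild type replicate 2, NICD2 replicate 1 or NICD2 replicate 2 (adjusted p up to 0.0711), while Rrm2 kept it in each of those fits. In the libraries with adrenal transcripts Rrm1 was not called (0.113). Tyms, thymidylate synthase, was at 17.8, 14.2 and 14.9 FPKM in wild type and 16.3, 17.4 and 13.3 FPKM in NICD2. Its groups overlapped, its means were 15.6 FPKM in both, and its log2 fold change was 0.00 with a limma interval of -0.26 to 0.26.

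The members' levels differed between the libraries of a group. NICD2 replicate 3 was the lowest NICD2 library in 36 of 45 members, where it was the lowest in 35.3% of all tested genes. Wild type replicate 2 was the lowest wild type library in 28 of 45 members, against 30.2% of all tested genes. As a median over members, log2(FPKM + 1) relative to the wild type mean was 0.04, -0.08 and 0.04 in wild type replicates 1, 2 and 3. In NICD2 replicates 1, 2 and 3 it was 0.37, 0.40 and 0.21. Thus all 3 NICD2 libraries lay above all 3 wild type libraries, with replicate 3 nearest to them. For the 16 G2/M genes the medians were 0.16, -0.19 and 0.04 in wild type and 0.49, 0.31 and 0.16 in NICD2, so wild type replicate 2 and NICD2 replicate 3 were lowest there too. For the 6 ORC genes the medians were -0.10, -0.05 and 0.11 in wild type and 0.16, 0.04 and 0.04 in NICD2, which overlap. NICD2 replicate 3 also lacks Y-linked transcripts and has the lowest level of the human Notch2 row; their part in the pattern was not tested.

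**Figure D4:**
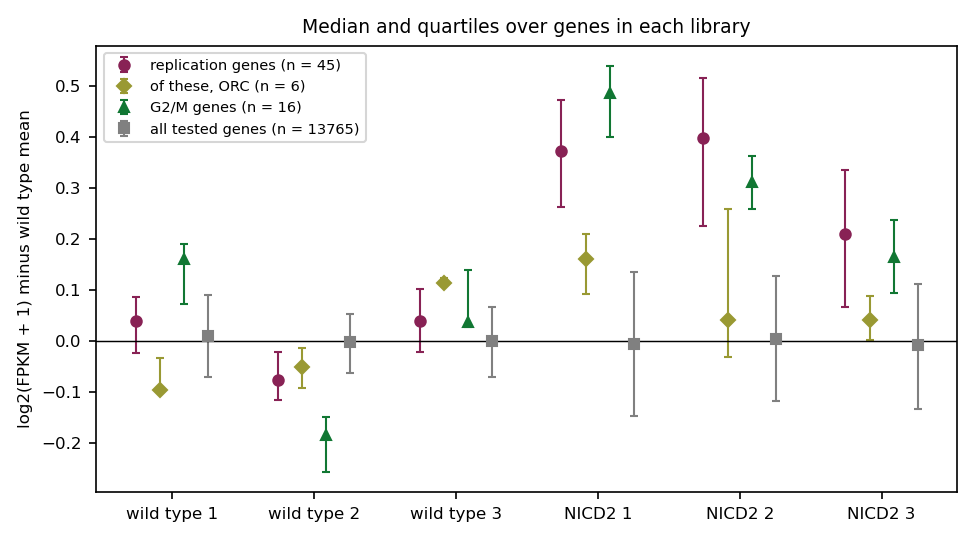
Median and quartiles over genes of log2(FPKM + 1) minus the wild type mean (vertical axis) in each of the 6 libraries, for the 45 replication genes, the 6 ORC genes among them, 16 G2/M genes and all 13765 tested genes. The replication genes stand at 0.37, 0.40 and 0.21 in the NICD2 libraries, and the medians of all tested genes stay near 0.

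Beyond the members, 6 lists of related genes, 114 in all and all tested, held 20 genes that rose and 1 that fell. Over all tested genes limma called 4.93% higher and 3.86% lower. The lists, too, were chosen with earlier results known, so their counts are a description. Replication-coupled chromatin genes had 6 of 14 higher, with a median log2 fold change of 0.26: Chaf1a, Asf1b, Nasp, Uhrf1, Hat1 and Hells. Asf1b, a histone chaperone, was at 7.88 and 12.0 FPKM (limma adjusted p = 0.00577), and Hells, a chromatin remodeler, at 10.5 and 16.2 FPKM (adjusted p = 0.00577). Both kept the call in each fit without 1 library. The list fell to 2 called genes in every fit without a library apart from that lacking NICD2 replicate 3, which had 7.

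Other nucleotide supply had 4 of 15 higher, with a median of 0.22, among them Shmt1, Ctps and Impdh2. Shmt1, which feeds folate carbon to thymidylate synthesis, was at 16.8 and 25.4 FPKM (limma adjusted p = 0.00122). It acts in the same cycle as Tyms, which was not called. The list had 1 called gene without wild type replicate 2, and 2 without wild type replicate 3 or NICD2 replicate 1. Other replication genes had 3 of 29 higher, Wdhd1, Pclaf and Fam111a, with a median of 0.19. Pclaf, a PCNA-binding factor listed under an older name and matched by gene ID, was at 27.5 and 40.0 FPKM (limma adjusted p = 0.0254). None of this list was called when wild type replicate 2, NICD2 replicate 1 or NICD2 replicate 2 was left out, and 1 was when wild type replicate 1 was. Without NICD2 replicate 3 there were 5.

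G1/S regulators had 3 of 23 higher, with a median of 0.24: E2f8, Rbl1 and Myc. Myc, a growth factor-induced transcription factor, was at 10.96 and 15.5 FPKM (limma adjusted p = 0.00659). E2f8, a repressor of E2F targets, was at 7.22 and 9.79 FPKM (adjusted p = 0.0467), and Rbl1, the pocket protein p107, at 9.43 and 13.0 FPKM (adjusted p = 0.0437). E2f8 and Rbl1 each kept the call in 1 of 6 fits without a library. The list had 1 called gene when either of replicates 1 and 2 of wild type or of NICD2 was left out.

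Of 16 G2/M genes, 15 had fold changes above 0 and the median was 0.31, close to that of the replication genes, but Cdk1 alone was called. An unadjusted limma p under 0.05 with a higher level was reached by 12 of them, against 12.4% of all tested genes. In 7 of them every NICD2 library lay above every wild type library, against 15% of all tested genes. Cdk1, the mitotic kinase, was at 18.2, 14.2 and 16.6 FPKM in wild type and 24.0, 23.6 and 20.1 FPKM in NICD2 (limma adjusted p = 0.0328). The groups did not overlap, and it kept the call only in the fits lacking wild type replicate 1 or NICD2 replicate 3 (adjusted p up to 0.103 otherwise). The summed level of the list was 259.9 to 329.8 FPKM in wild type and 340.1 to 418.6 FPKM in NICD2. Without wild type replicate 1, 4 of the list were called, as with the replicate number as a block. Without NICD2 replicate 3 there were 2, and with no filter on low values none. Ccnb1, a cyclin partner of Cdk1, was added with the robust option (adjusted p = 0.0406) and with the adrenal term (0.0498), under which 3 were called. That the replication genes changed more than the G2/M genes was not tested.

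The DNA damage checkpoint list had 3 of 17 higher, among them Chek1 and Chek2, and 1 lower, Gadd45a, with a median of 0.05. Chek1, the kinase of the replication checkpoint, was at 4.35 and 6.44 FPKM (limma adjusted p = 0.0169). Gadd45a, a target of p53, was at 28.8 and 21.6 FPKM (adjusted p = 0.0140). Chek2 kept its call in 1 and Gadd45a in 4 of the 6 fits without a library. Without wild type replicate 2, 1 of the list was called higher.

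Markers of the cell types that a whole kidney can hold are given beside the members. Their counts of called genes stand against 4.93% of all tested genes called higher and 3.86% called lower by limma. Nephron progenitor markers summed to 143.4 to 150.3 FPKM in wild type and 118.8 to 128.9 FPKM in NICD2. Of 10 tested, Sall1 and Pax2 were lower and none was higher, 2 (Crym and Uncx) had fold changes above 0, and Sall1 was called in 2 of the 6 fits that left a library out. Six2, a defining marker, was at 0.99 to 1.51 and 0.46 to 0.70 FPKM, too low to be tested. The list had 1 lower gene when wild type replicate 2, NICD2 replicate 2 or NICD2 replicate 3 was left out, and 3 in the libraries with adrenal transcripts. Stromal markers summed to 549.3 to 641.6 and 478.5 to 553.7 FPKM, with 1 of 9 lower (Foxd1) and none higher. Foxd1 kept its call in 1 of those 6 fits, the one lacking wild type replicate 3, and 3 of the list were lower without NICD2 replicate 3. Endothelial markers summed to 352.4 to 395.3 and 312.5 to 325.0 FPKM, with 2 of 7 lower (Emcn and Tek) and none higher. Tek stayed called only when wild type replicate 1 or NICD2 replicate 3 was left out. Ureteric tip markers had 1 of 5 higher (Ros1) and 1 lower (Gfra1), at sums of 50.3 to 53.1 and 47.7 to 50.2 FPKM. Blood and immune markers overlapped, at 1949 to 4520 and 1794 to 2863 FPKM, and none of 9 was called. Kidney tubule and glomerulus markers had 1 of 10 higher (Umod) and 5 lower, at sums of 1262 to 1361 and 1118 to 1235 FPKM. So the replication genes rose in libraries in which the summed nephron progenitor, endothelial, ureteric tip and kidney tubule and glomerulus markers were lower. The ureteric tip sums were separated by a narrow margin. In the nephron progenitor sum Pax2 fell from 44.4 to 32.4 and Sall1 from 28.3 to 20.7 FPKM, while Crym and Uncx did not fall. The tubule and glomerulus sum was lower although Umod, within it, rose from a mean of 114.3 to 336.7 FPKM. The part of cell composition in the members' levels was not tested.

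The authors' deposited table, which compares the groups by DEGseq per the file headers, gives a q under 0.05 to 39 members with a higher and 1 (Orc3) with a lower level. The same table gives such a q to 22.9% of 18724 genes higher and 26% lower. For Gmnn the authors' deposited table has a log2 fold change of 1.16, and for Orc3 -0.13.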

How the data were processed

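RNA was taken from flash-frozen kidneys and sequenced as Illumina TruSeq libraries, per the labels' protocols. The deposited table gives FPKM per gene and sample, computed by the authors, per the file headers, and the longest transcript length in bases (another deposited value). The authors' own comparison, by DEGseq per the file headers, is deposited as a log2 fold change with its p-value and its q-value. Bowtie 0.12.2 and the build mm8 are named in the submitters' processing notes, while the table's chromosome accessions are those of GRCm38, used here for positions. The program that made the FPKM, its use of strand and its treatment of shared reads are not stated in any source at hand. The table places Cdc45 on a scaffold, so no position is printed for it.

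From the FPKM, log2(FPKM + 1) was computed, a gene was kept if 3 or more libraries had 1 FPKM or more, and groups were compared by limma-trend (limma 3.58.1, R 4.3.3) without covariates, adjusted over 13765 genes. Rows without FPKM (4010) and 27 columns that compare pairs of samples were not used. No 2 libraries were identical. Depth is not stated. It was estimated as the library size at which most low values were whole numbers of fragments (72.8% to 75.8% within 0.15 of a whole number, against 30.0% by chance). Orc1 rests on the fewest estimated fragments of the members, 76 to 147 per library. Simulated data of 13765 genes for this comparison held 200 changed genes, placed among those with a wild type level above about 2 FPKM. Noise was drawn independently for each gene. Log2 changes of 0.25, 0.5, 1 and 2 were found by the test in 8%, 52%, 96% and 100% of the genes given them. Of its calls, 2.29% were false. The fit of the measured data called 1210 genes, so there an adjusted p under 0.05 was reached at a larger unadjusted p. These shares therefore do not carry over directly to that fit, nor to the members as a set, whose levels shifted together between libraries. Most members' fold changes lie between the first 2 of these sizes.

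The members and gene lists were chosen with earlier results of these data known. Any member could be named, as could the called genes of each related list and the Notch2 rows. Where fewer than 4 genes of a list were called, those with the smallest p brought it to 4. The defining markers Six2 and Cdh16, and the markers Crym and Uncx, lie outside this rule and were chosen after their values had been seen. Motifs were counted with Python 3.11.15 (pandas 2.3.3, numpy 2.4.6) and figures drawn with matplotlib 3.10.9. All 45 members matched RefSeq by gene ID, and 39 shared a start or end with it. Alternatives were another pseudocount, filters, scalings, the replicate block, the robust option and leaving out each library. The fits on adrenal transcripts, and the alternatives for the related lists, were added after seeing the data. Some genes of the related lists are counted but not reported here by name.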

Additional observations from a re-analysis of the deposited data

How the results depend on the processing

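The count of replication genes called higher was 21, and 0 were called lower under every alternative. It was 11 to 25 when 1 library was left out, 8 in the 4 libraries with adrenal transcripts and 18 to 25 under the other alternatives. The stricter filter tested 41 of the 45 genes, without Orc1, Mcm10, Gins3 and Exo1, and called 20. The median log2 fold change of the members tested stayed between 0.31 and 0.39 throughout. Genes called over the whole table numbered 1210, with 624 to 985 when 1 library was left out and 555 in the libraries with adrenal transcripts. The related lists had 20 genes higher, 5 to 24 without 1 library, 9 with no filter on low values and 6 in the libraries with adrenal transcripts. Across all alternatives, 8 members were called in every fit that tested them: Cdc6, Gmnn, Mcm6, Gins2, Rfc4, Rfc5, Exo1 and Rrm2.

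With the replicate number as a block, 21 members were called, Cdc45 being added (adjusted p = 0.0406) and Pcna lost (0.0652), while the related lists fell to 12 genes, though the G2/M genes among them rose from 1 to 4, and the whole table to 1055. Same-numbered samples did not deviate together (r = -0.03, 0.06 and -0.05, against -0.25 to 0.25 between other numbers), and no sample correlated best with its own number. The numbers are therefore not taken to pair samples. Each sample had its highest r with a sample of another number. These were wild type replicate 1 with NICD2 replicate 2 (0.21), wild type replicate 2 with NICD2 replicate 3 (0.24) and wild type replicate 3 with NICD2 replicate 1 (0.25). Whether these samples share a batch was not tested.

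By complex, leaving out 1 library gave 2 to 6 for MCM2-7, 1 to 5 for origin firing, 0 to 1 for RPA, 1 to 2 for the polymerases, 1 to 3 for Okazaki maturation and 1 to 2 for nucleotide supply. The libraries with adrenal transcripts gave 1, 1, 0, 0, 1 and 1. The polymerases had 3 with the robust option and 2 with the adrenal term, and Okazaki maturation 1 with no filter.

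Among the members and mouse Notch2 the sign changed in 5 genes near 0. Leaving out 1 library gave log2 fold changes of -0.0207 to 0.0902 for Orc4, -0.122 to 0.0260 for Orc5, -0.0211 to 0.0978 for Gins4, -0.0737 to 0.107 for Tyms and -0.0469 to 0.0635 for mouse Notch2. In the libraries with adrenal transcripts Gins4 was at -0.0417 and Tyms at -0.0577, and with upper-quartile scaling Tyms was at -0.0155. The cause of these differences was not tested. In the simulated data, at this number of samples, changes of 0.25 on the log2 scale were mostly missed.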
